A study of Mus musculus with 6 samples.

Results

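Aminoacyl-tRNA synthetases are the enzymes that load each transfer RNA with its amino acid, and 5 of their genes were found among the 516 rows of the gene table analysed here. They were Wars, Kars, Iars and Farsa, whose proteins serve the cytosol, and Rars2, whose protein serves mitochondria. The rows were taken by gene name. The table itself holds genes that its authors had picked for a difference between the genotypes, each past a log2 fold of 1 in either direction with p below 0.01, so the differences between genotypes given below are what brought these genes into view. They are given as a description, and the calls of a limma fit over the table are counted only beside the share of all rows called. Both groups were ovulated oocytes at metaphase II, the stage at which the mature egg waits for fertilization, from superovulated C57BL/6 females labelled as 24 days old. In the Mtor CKO group (n = 3 libraries) Mtor, which encodes a kinase that controls growth and translation, had been deleted by Zp3-Cre, a recombinase driven by a promoter that is active in growing oocytes. The WT group (n = 3 libraries) was labelled wild type, with no further allele named. Each library was made from 5 oocytes lysed together, and the labels do not say whether libraries came from separate mice, so the spread between libraries may be partly technical. Values are FPKM, which divides a gene's fragments by the length of its transcript and by the library's total of mapped fragments. They are relative levels, and a lower FPKM in bulk lysate cannot tell less transcript per oocyte from a larger amount of other RNA.

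A synthetase first activates its amino acid with ATP and then transfers it to the matching transfer RNA, and the charged transfer RNA is delivered to the ribosome. Animal cells keep separate enzymes for most amino acids in the cytosol and in mitochondria, where the mitochondrial set supports synthesis of respiratory chain subunits. In the cytosol several synthetases, the isoleucine and lysine enzymes among them, are held in a multi-synthetase complex. In cultured mammalian cells MTOR complex 1 is known to raise translation of the transcription factor ATF4, and genes of cytosolic synthetases are among the known ATF4 targets. Fully grown oocytes have stopped transcription, so the egg depends on transcripts stored during growth.

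The read depth of the libraries is not known, because FPKM keeps no counts. Mtor was not among the rows and was not analysed here, so the genotype labels have no check from the targeted gene. Of 20 oocyte markers 2 had rows, Zp2 and Nlrp5, and their summed level was 449.9 to 905.6 FPKM in WT and 233.9 to 253.5 FPKM in Mtor CKO. Of 20 cumulus and granulosa markers 2 had rows, with sums of 4.50 to 9.86 FPKM in WT and 1.68 to 3.15 FPKM in Mtor CKO, where Vcan was listed at 0 in each library. Of 15 oviduct markers 1, Krt7, had a row (2.45 to 4.40 FPKM in WT, 4.23 to 10.1 FPKM in Mtor CKO), and of 16 blood and immune markers 0 did. The part of these other cells in the synthetase values was not tested.

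The promoters of 4 of the 5 genes are shown because the cytosolic genes were lower in Mtor CKO while Rars2 was higher. Each is the RefSeq sequence from 250 bases before to 50 bases after the start of the gene in build GRCm38.p6, written 5′ to 3′ on the strand of the gene. That start is RefSeq's, and it can differ from the GENCODE gene bounds given below for each gene, as it does for Iars, Kars and Farsa. Wars had no entry in the promoter table. The windows are chr13:49681880-49682179 on the plus strand for Iars, chr8:112011305-112011604 on the minus strand for Kars, chr8:84856736-84857035 on the plus strand for Farsa and chr4:34614707-34615006 on the plus strand for Rars2. Capitals mark TGATGNAA, an element bound by ATF4 with C/EBP factors, and CCGGAAGT, an element bound by ETS factors, wherever either strand holds them.
Iars: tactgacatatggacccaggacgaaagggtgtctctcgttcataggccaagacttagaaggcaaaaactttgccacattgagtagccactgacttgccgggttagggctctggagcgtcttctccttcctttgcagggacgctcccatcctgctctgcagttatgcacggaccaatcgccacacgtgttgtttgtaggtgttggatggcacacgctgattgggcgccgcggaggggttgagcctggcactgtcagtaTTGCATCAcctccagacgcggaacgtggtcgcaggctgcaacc
Kars: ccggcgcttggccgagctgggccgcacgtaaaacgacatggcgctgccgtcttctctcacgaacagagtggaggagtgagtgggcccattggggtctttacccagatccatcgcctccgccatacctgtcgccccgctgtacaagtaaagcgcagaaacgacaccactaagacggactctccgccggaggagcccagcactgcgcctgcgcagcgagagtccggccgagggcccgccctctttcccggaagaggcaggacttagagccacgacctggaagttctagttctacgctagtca
Farsa: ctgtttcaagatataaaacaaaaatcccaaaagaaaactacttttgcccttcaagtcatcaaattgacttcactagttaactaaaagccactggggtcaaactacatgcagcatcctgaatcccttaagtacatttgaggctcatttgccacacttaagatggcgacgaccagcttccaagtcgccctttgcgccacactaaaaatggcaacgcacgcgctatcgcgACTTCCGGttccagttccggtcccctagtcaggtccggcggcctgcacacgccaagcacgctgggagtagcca
Rars2: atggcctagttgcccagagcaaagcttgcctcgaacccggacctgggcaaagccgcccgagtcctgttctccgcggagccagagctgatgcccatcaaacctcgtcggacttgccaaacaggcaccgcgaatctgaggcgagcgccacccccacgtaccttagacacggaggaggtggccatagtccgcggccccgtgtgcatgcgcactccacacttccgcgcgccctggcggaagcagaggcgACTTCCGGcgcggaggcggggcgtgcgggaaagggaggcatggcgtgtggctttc

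The Iars window held 1 TGATGNAA match, on the opposite strand and beginning 7 bases after the RefSeq start that the window is built on. That motif was present in 4.06% of 27025 promoters of the same length, and in 1 of these 4. The ETS element was present in 4% of all promoters and in 2 of these 4, on the opposite strand in both Farsa and Rars2, where it began 23 and 5 bases before that start. Both strands were also searched for other motifs, and a match on either was counted. CACGTG (7.24% of all promoters) was found in Iars, and CCAAT (37.9%) in Iars and Kars. GGGCGG (35.9%) was found in Kars and Rars2, and TATAAA (14.2%) in Farsa. No motif searched was shared by the 3 cytosolic windows. These are matches of letters only. The nearest coding gene to Kars, Terf2ip, lies 75 bases from it. The Kars window runs to 112011604, past the Kars end at 112011323 by more than that gap, and so reaches into Terf2ip. The CCAAT match of the Kars window, which began 163 bases before the RefSeq start, lies in that part. It cannot be assigned to Kars alone.

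In the oocytes without Mtor the 4 cytosolic synthetase transcripts were at 34.3% to 48.8% of their WT means, and the mitochondrial Rars2 transcript was at 295% of its own. For each of the 4 cytosolic genes every Mtor CKO library lay below every WT library, and for Rars2 every Mtor CKO library lay above every WT library. Of all 516 rows, 57.4% were separated in this way with Mtor CKO lower and 14.5% with Mtor CKO higher, 71.9% in all. By the authors' deposited log2 fold, 76.4% of rows were lower and 23.6% higher. The picked table thus leans toward lower values as these genes do.

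**Figure D1:**
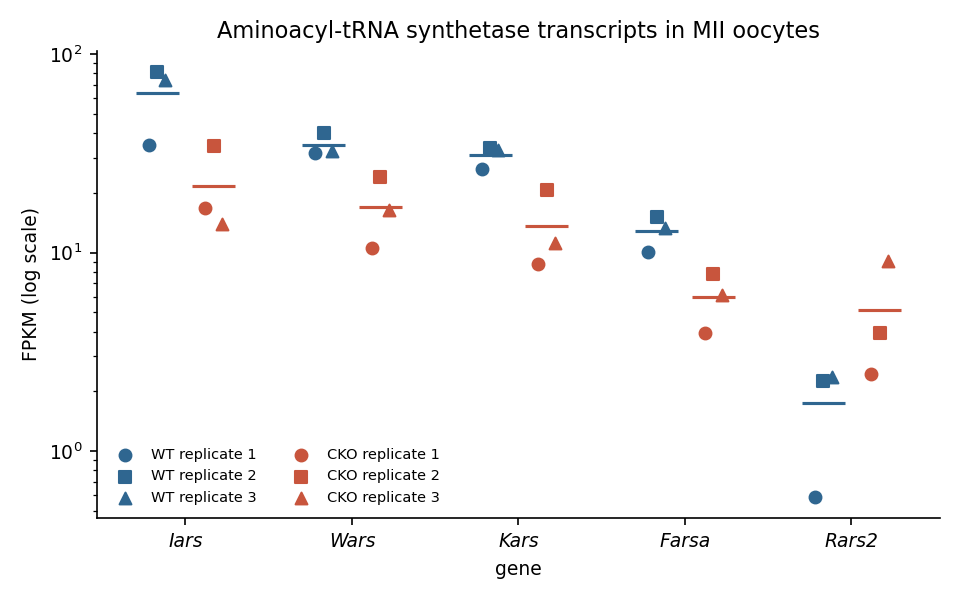
FPKM on a log axis of the 5 synthetase genes in each library, with symbols for the replicate number, colour for the genotype and a bar for the mean of 3 libraries. Iars, Wars, Kars and Farsa lie lower in each Mtor CKO library than in any WT library, narrowly so for Iars (34.5 against 34.9 FPKM), and Rars2 lies higher.

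Iars, on chromosome 13 (49682100 to 49734267, plus strand, mm10), encodes the isoleucine enzyme. It stood at 34.9, 81.4 and 74.1 FPKM in WT replicates 1 to 3 and at 16.8, 34.5 and 14.0 FPKM in Mtor CKO replicates 1 to 3. The ranges come close to touching, since the lowest WT library was 1.01 times the highest Mtor CKO library. The WT mean of 63.4 ± 25.0 FPKM was 2.91 times the Mtor CKO mean of 21.8 ± 11.1 FPKM (SD, n = 3 each). On the log2(FPKM + 1) scale the Mtor CKO mean minus the WT mean, called the log2 difference from here on, was -1.52 (SE 0.47). It was the largest of the 4 cytosolic differences, and its WT libraries were also the most uneven of the 4, with a coefficient of variation of 39.4%. The Gm4849 transcript matches Iars at 96.0% identity over 1656 bases, so reads could have been divided between them and the Iars level is uncertain. Small nucleolar RNA genes Gm25394 and Gm23482 lie within the Iars interval.

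Kars, on chromosome 8 (111993443 to 112011323, minus strand), encodes the lysine enzyme, and differently spliced transcripts of this gene are known to supply both the cytosol and the mitochondria. It stood at 26.4, 33.8 and 33.1 FPKM in WT and at 8.80, 20.8 and 11.2 FPKM in Mtor CKO. The WT libraries were close together and the Mtor CKO libraries were not, with coefficients of variation of 13.1% and 46.7%. The mean was 31.1 ± 4.07 FPKM with Mtor and 13.6 ± 6.33 FPKM without it (SD, n = 3 each), and the log2 difference was -1.22 (SE 0.39). The table gives gene-level values, so the cytosolic and mitochondrial forms of Kars were not separated. Related sequences of 12 other annotated genes, Kars-ps1 among them, match Kars over at least 200 bases at 83.2% (Gm7155) to 87.3% (Gm8428) identity.

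Wars, on chromosome 12 (108860030 to 108894174, minus strand), encodes the tryptophan enzyme, which is also known as a protein induced by interferon in human cells. It stood at 31.96, 40.1 and 32.4 FPKM in WT and at 10.6, 24.0 and 16.3 FPKM in Mtor CKO. All WT libraries were at least 1.33 times the highest Mtor CKO library, the widest gap of the 4 cytosolic genes. Mean Wars levels were 34.8 ± 4.602 FPKM with Mtor and 17.0 ± 6.73 FPKM without it (SD, n = 3 each), and the log2 difference was -1.06 (SE 0.38). Wdr25 on the other strand overlaps the Wars interval by 544 bases. The labels do not say that reads were counted by strand.

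Farsa, on chromosome 8 (84856989 to 84869257, plus strand), encodes the alpha subunit of the phenylalanine enzyme, which pairs with a beta subunit encoded by Farsb. It stood at 10.0, 15.1 and 13.4 FPKM in WT and at 3.95, 7.80 and 6.12 FPKM in Mtor CKO. This was the lowest of the cytosolic transcripts in each library. Farsa averaged 12.8 ± 2.58 FPKM with Mtor and 5.96 ± 1.93 FPKM without it (SD, n = 3 each), and the log2 difference was -1.01 (SE 0.37). Farsb was not among the rows, so the balance of the subunits was not analysed here.

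Rars2, on chromosome 4 (34614957 to 34660167, plus strand), encodes the mitochondrial arginine enzyme and was the member with higher values without Mtor. It stood at 0.590, 2.26 and 2.37 FPKM in WT and at 2.44, 3.94 and 9.04 FPKM in Mtor CKO. The ranges nearly met, since the lowest Mtor CKO library was 1.03 times the highest WT library. The Mtor CKO mean of 5.14 ± 3.46 FPKM was 2.95 times the WT mean of 1.74 ± 0.997 FPKM (SD, n = 3 each). The log2 difference was 1.10 (SE 0.47), and it was 0.67 without Mtor CKO replicate 3, the highest library. These are low levels: ranked by WT mean, Rars2 was 458th of the 516 rows, and by Mtor CKO mean 246th. The start of Orc3, on the other strand, lies 13 bases from that of Rars2, so most of the Rars2 promoter window lies in Orc3. The GGGCGG match of that window, which began 198 bases before the RefSeq start, is in the Orc3 part.

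All 5 members passed the filter on low values and entered a limma fit over the 471 rows that did. In that fit 4 of 5 members, the cytosolic ones, had an adjusted p of at most 0.05, where 60.3% of tested rows were called lower and 13.4% higher, 73.7% in all. Rars2 was not called. The count of members called was 0 in place of 4 without Mtor CKO replicate 1, Mtor CKO replicate 3, WT replicate 2 or WT replicate 3, and over all tested rows it was 3 to 5 in place of 347. With each library centred on its median over the tested rows, Rars2 was called and the 4 cytosolic genes were not. That centring moved the median log2 difference of the tested rows from -1.03 to -0.28, and it turned their calls from 63 higher and 284 lower to 86 higher and 3 lower. The table had been picked on this contrast, so neither count carries evidence for the members.

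**Figure D2:**
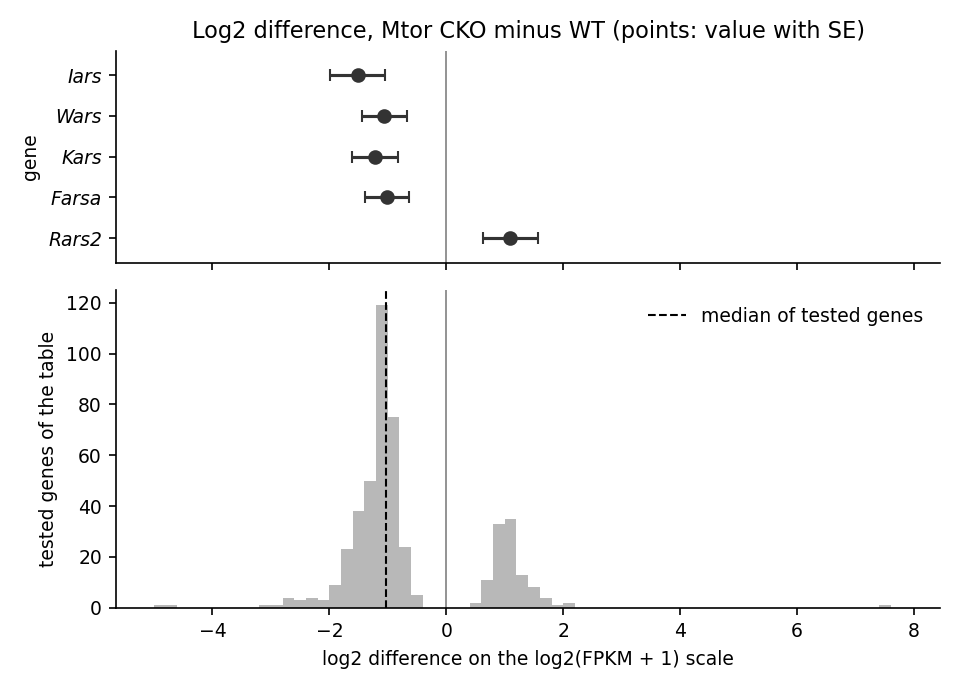
Log2 difference (Mtor CKO minus WT, log2(FPKM + 1) scale) of the 5 genes with the limma standard error, above a histogram of the same quantity over the 471 tested rows with their median dashed. The cytosolic genes, from -1.52 to -1.01, lie in the large group of lower rows around the median of -1.03, and Rars2 at 1.10 lies in the smaller group of higher rows.

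In the authors' deposited table the log2 fold of Mtor CKO over WT was -1.44 for Iars, -1.19 for Kars, -1.13 for Farsa, -1.06 for Wars and 1.43 for Rars2. The q-value there was 0.0143 for Wars and 0.0177 for Kars, so 2 of 5 members were at or below 0.05, as were 49.2% of all rows. The q-values of the others in the authors' deposited table were 0.0839 for Farsa, 0.127 for Iars and 0.146 for Rars2. Wars lay nearest to the bound on fold, where the smallest absolute log2 fold of any row was 1.0006, and Rars2 lay nearest to the bound on p, at 0.00605 in the authors' deposited table where the largest p of any row was 0.0099. Genes just outside these bounds were not analysed here.

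Summed over the 4 cytosolic genes, the level was 103, 170 and 153 FPKM in WT replicates 1 to 3 and 40.2, 87.1 and 47.6 FPKM in Mtor CKO replicates 1 to 3. The means were 142 ± 34.8 and 58.3 ± 25.2 FPKM (SD, n = 3 each). The difference in each gene's share of that sum was smaller than the larger of its SDs. Iars made up 43.3% ± 8.26 of it in WT and 37.0% ± 6.65 in Mtor CKO, Wars 25.2% ± 5.08 and 29.4% ± 4.27, Kars 22.3% ± 2.93 and 23.1% ± 1.02, and Farsa 9.11% ± 0.531 and 10.6% ± 2.05 (SD, n = 3 each). Between the genotypes, on which the rows had been picked, the mitochondrial transcript differed in the opposite direction to this sum. Within each genotype replicate 1 was the lowest library for both the sum and Rars2. Rars2 equalled 0.571%, 1.33% and 1.55% of the cytosolic sum in the WT libraries and 6.06%, 4.53% and 19.0% in the Mtor CKO libraries.

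**Figure D3:**
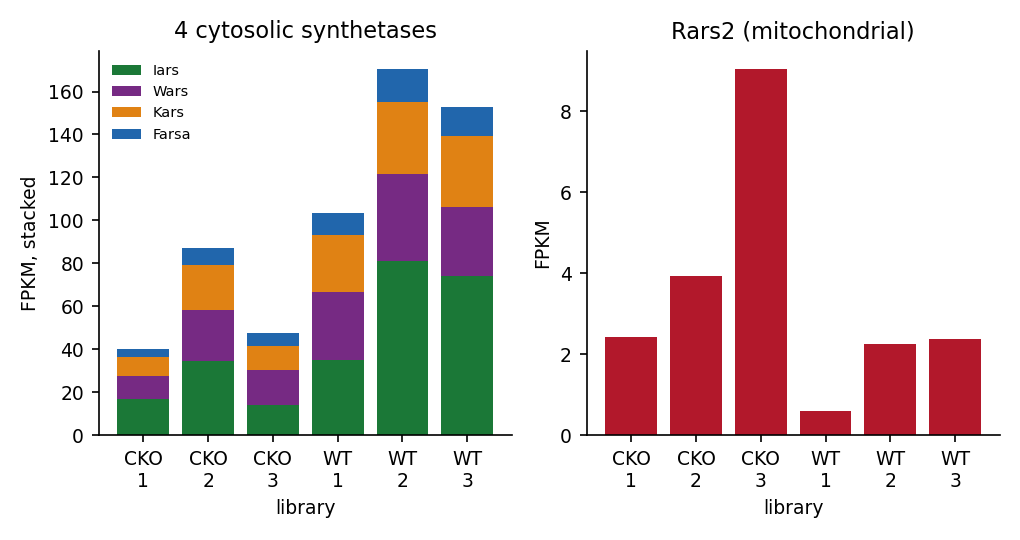
FPKM of the 4 cytosolic synthetase genes stacked in each library (left) and of Rars2 (right), by genotype and replicate number. The cytosolic stack is 40.2 to 87.1 FPKM in Mtor CKO and 103 to 170 FPKM in WT, while Rars2 is 2.44 to 9.04 FPKM and 0.590 to 2.37 FPKM.

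FPKM is scaled per length, so levels can be set side by side between genes, though only roughly. The related copies of Iars and Kars given above could have taken or added reads. Their part in the order of levels was not tested. By mean log2(FPKM + 1) over the 6 libraries the order was Iars, Wars, Kars, Farsa and Rars2, and the means of each genotype had the same order. Kars exceeded Farsa in 6 of 6 libraries, by 1.82 to 2.66 times. Iars exceeded Wars in 5 of 6 libraries, with Mtor CKO replicate 3 the exception, and Wars exceeded Kars in 5 of 6, with WT replicate 3 the exception. Farsa exceeded Rars2 in 5 of 6 libraries, and in Mtor CKO replicate 3 Rars2 was the higher at 9.04 against 6.12 FPKM. The mean log2 ratios of neighbours were 0.55 ± 0.53 for Iars over Wars, 0.25 ± 0.18 for Wars over Kars, 1.22 ± 0.20 for Kars over Farsa and 1.74 ± 1.68 for Farsa over Rars2 (SD, n = 6). These values pool the genotypes. Farsa over Rars2 was 3.11 ± 0.86 in WT and 0.37 ± 0.82 in Mtor CKO, Iars over Wars 0.78 ± 0.57 and 0.32 ± 0.48, and Wars over Kars 0.16 ± 0.17 and 0.34 ± 0.18 (SD, n = 3 each). With 5 added to each FPKM the pooled ratio of Farsa over Rars2 was 0.78. No neighbouring pair passed 0.05 by a two-sided exact sign-flip permutation test adjusted over the 4 pairs (adjusted p = 0.0938 for Iars over Wars and 0.0833 for each of the other pairs). The smallest p that 6 libraries allow is 0.0312 before adjustment, and Kars over Farsa reached it.

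Apart from genotype, the cytosolic genes were high and low in the same libraries for the most part. Each value was expressed as its deviation from the genotype mean on the log2(FPKM + 1) scale. Mtor CKO replicate 2 was above the mean of its genotype for the 4 cytosolic genes, by 0.38 for Farsa to 0.75 for Iars, while Rars2 stood at -0.17. In Mtor CKO replicate 3 Rars2 stood at 0.86, with Iars at -0.50, Kars at -0.18, Wars at 0.02 and Farsa at 0.07. WT replicate 1 was below its genotype mean for all 5 genes, from -0.11 for Wars to -0.75 for Iars. The tested rows as a whole leaned the same way in these libraries, with a median deviation of 0.18 in Mtor CKO replicate 2 and -0.20 in WT replicate 1.

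**Figure D4:**
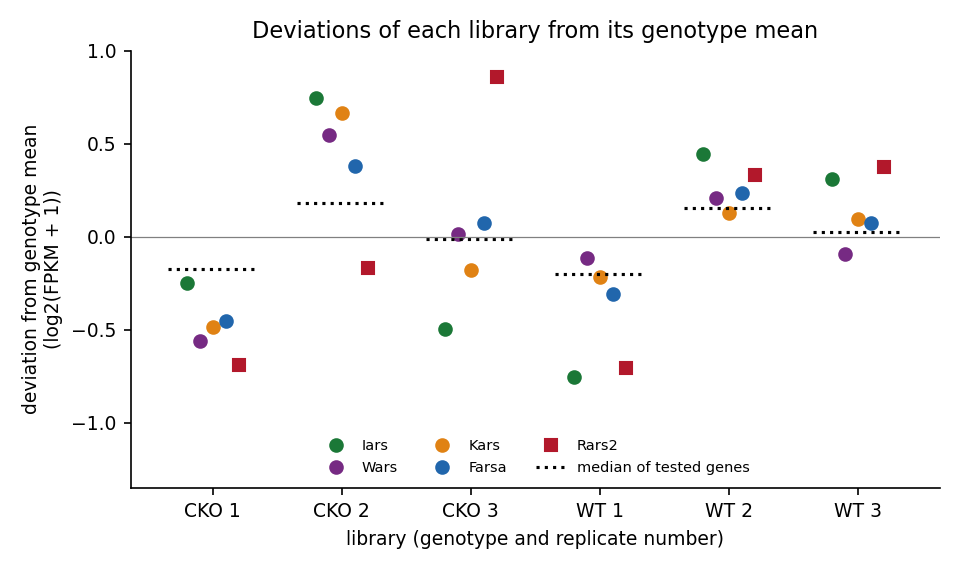
Deviation of each library from the mean of its genotype, on the log2(FPKM + 1) scale, for the 5 synthetase genes (circles cytosolic, squares Rars2), with the median over the 471 tested rows dotted. In Mtor CKO replicate 2 the cytosolic genes lie at 0.38 to 0.75 and Rars2 at -0.17, and in Mtor CKO replicate 3 Rars2 stands apart at 0.86.

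Over the 6 libraries the Pearson correlation of these deviations was 0.63 to 0.93 in the 6 pairs of cytosolic genes, with a median of 0.86, and was highest for Wars with Kars. In the 4 pairs with Rars2 it was 0.22 to 0.63, with a median of 0.30. Over all pairs of tested rows the median was 0.15 and the upper quartile 0.59. The pairs share library, depth and scaling, so these values are a description. The median with Rars2 rested on single libraries, at 0.90 without Mtor CKO replicate 2, 0.74 without Mtor CKO replicate 3 and -0.08 without Mtor CKO replicate 1.

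The rows whose deviations were most like each member over the 6 libraries were taken as the 3 with the highest correlation. The deviations within a genotype cancel out, so fewer than 6 values vary freely. High correlations come easily when the best of many rows are taken. For Wars they were Nav3 (r = 0.997), 2210019I11Rik (0.992) and Stip1 (0.991), which encodes a co-chaperone of HSP70 and HSP90. For Kars they were the transcription factor Foxp2 (r = 0.998), Zfp410 (0.997) and C77370 (0.988). For Iars they were Nono (r = 0.999), an RNA-binding protein of paraspeckles, Gm371 (0.983) and the kinesin Kif2c (0.982). For Farsa they were Ctps (r = 0.996), which makes CTP, Gpd2 (0.995) and Bcl10 (0.994). These 12 rows were lower in Mtor CKO, with log2 differences from -0.94 for Zfp410 to -1.68 for Kif2c. By the authors' deposited log2 fold 76.4% of all rows of the picked table were lower. High correlations were common for the cytosolic genes. A value of at least 0.9 was reached by 15.3% of the other tested rows with Wars, 14.7% with Kars, 11.5% with Farsa and 6.81% with Iars, against 1.28% with Rars2. The share of rows that reached the higher values listed above was not counted. For Rars2 the 3 rows were Alkbh8 (r = 0.983), a methyltransferase that modifies transfer RNA, and the actin capping subunits Capza2 (0.931) and Capza1 (0.919). Unlike Rars2, all 3 of these were lower in Mtor CKO by their means, with log2 differences of -1.03, -1.23 and -0.95.

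The other enzymes and partners of transfer RNA charging were mostly not among the rows. Of 21 cytosolic synthetase genes 4 had a row, and of 17 mitochondrial ones 1 did. The 3 scaffold proteins of the multi-synthetase complex, the 13 genes of editing, recycling and transamidation and the 28 of the amino acid stress response, Atf4 and its target Asns among them, had 0 rows. A gene without a row has no value here, and whether it differed is not known. Of the 198 genes on the lists other than synthetases 6 had a row under their own symbol. Of these rows 5 were lower and 1 higher in the authors' deposited table. Among these 6 rows 4 were tested, and 3 were called lower by limma, as were 60.3% of tested rows. Rows that join several names were not matched and are outside these counts. Among them is the row RPP14,Rpp14, whose gene is on the list of transfer RNA maturation and export. Limma called that row lower too (log2 difference -1.16, SE 0.43). All of these rows had been picked on this contrast, so the calls retest the picking and carry no evidence for these genes. Only 3 to 5 rows of the whole table were called without any 1 of the 4 libraries named above.

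Of the genes that modify transfer RNA, Alkbh8 stood at 0.764, 2.34 and 2.64 FPKM in WT and at 0.0206, 0.211 and 1.06 FPKM in Mtor CKO (log2 difference -1.03, SE 0.36). Its groups overlapped, since Mtor CKO replicate 3 exceeded WT replicate 1. Elp2, a subunit of the Elongator complex that modifies wobble uridines, stood at 4.64, 8.41 and 10.8 FPKM in WT and at 4.69, 1.81 and 4.55 FPKM in Mtor CKO. The groups of Elp2 overlapped as well (log2 difference -0.94, SE 0.44). Of the 4 tested rows matched by symbol, Elp2 was the 1 that was not called. Gfm2, a mitochondrial factor that recycles ribosomes, had a log2 difference of -1.005 (SE 0.36), with 4.48 ± 0.785 FPKM in WT and 1.85 ± 1.01 FPKM without Mtor (SD, n = 3 each). It acts in the same compartment as the Rars2 protein and was lower where Rars2 was higher. By the authors' deposited log2 fold 76.4% of all rows of the picked table were lower too. Eif5a, which helps the ribosome through difficult stretches, had a log2 difference of -1.16 (SE 0.47), with 409 ± 75.04 FPKM in WT and 203 ± 115 FPKM without Mtor (SD, n = 3 each). Its Mtor CKO replicate 2, at 326 FPKM, exceeded its WT replicate 1, at 323 FPKM. The last 2 rows matched by symbol were too low to be tested. Rpp40, a protein of RNase P, was at 0.0193, 0.277 and 0.0451 FPKM in WT and at 2.90, 2.25 and 0.0529 FPKM in Mtor CKO. Slc7a8, an amino acid transporter, was at 0.538, 2.69 and 1.02 FPKM in WT and at 0.295, 0.306 and 0.752 FPKM in Mtor CKO.

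The 5 genes differ in size and place. The annotated transcript with the longest coding sequence has 4426 bases and 34 exons in Iars, 2189 bases and 16 exons in Kars, 1868 bases and 20 exons in Rars2, 1826 bases and 13 exons in Farsa, and 1824 bases and 11 exons in Wars. Wars, Farsa and Rars2 are thus of nearly the same transcript length. Kars and Farsa are both on chromosome 8 and far apart on it. By structure Iars, Wars and Rars2 are class I synthetases and Kars and Farsa are class II.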

How the data were processed

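Per the labels' protocols, lysates of 5 ovulated oocytes went through SMARTer cDNA synthesis and 17 PCR cycles, so reads are not independent molecules. Ovulation was induced with PMSG (5 IU, day 22) and, after 48 h, hCG (5 IU), with collection 14 h later. TopHat2 2.0.8b, Cufflinks 2.1.1 and Cuffdiff with build mm10 are named in the submitters' processing notes. The deposited table gives an FPKM made by the authors for each library and genotype, a log2 fold change, and a p-value and q-value from the authors' comparison. The fold column, headed as WT against CKO, matched log2(CKO/WT) of the genotype columns to 0.0001 in 513 of the 513 rows with both above 0.

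Limma 3.58.1 in R 4.3.3, with trend, was fitted to log2(FPKM + 1) of the 471 rows that reached 1 FPKM in 3 or more libraries, and p-values were adjusted over those rows by Benjamini-Hochberg with a threshold of 0.05. The fit was tested on simulated data. Fold changes on this scale understate those of low genes. Neighbouring levels were compared by exact sign-flip permutation of log2 FPKM ratios. Genes named are the members, the 3 rows most correlated with each, and the rows on fixed lists of pathway and marker genes matched by symbol. Matching was by the exact symbol, so rows that join several names were missed, and RPP14,Rpp14 was added by name. The members and lists were chosen with earlier results of these data known. Gene positions and lengths are from GENCODE M21, related transcripts from blastn 2.17.0 (at least 80% identity over 200 bases), and promoters from RefSeq, the first entry of each symbol being used for the shares. The alternatives were other pseudocounts, filters and variance model, centred libraries, a replicate block and leaving out each library.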

Additional observations from a re-analysis of the deposited data

How the results depend on the processing

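The direction of the 5 log2 differences was kept in every alternative run. The count of tested rows called, 347, was 89 with libraries centred on the table median, and ranged from 3 to 383 when 1 library was left out. The count of members called, 4, was 1 (Rars2) after centring and 0 to 4 when 1 library was left out. Centring set the log2 differences to -0.31 for Wars, -0.47 for Kars, -0.77 for Iars, -0.27 for Farsa and 1.85 for Rars2. Because the rows were picked for a difference and most are lower, centring on them by construction subtracts their common fall. Leaving out 1 library gave -1.33 to -0.78 for Wars, -1.55 to -0.97 for Kars, -1.89 to -1.27 for Iars, -1.20 to -0.79 for Farsa and 0.67 to 1.44 for Rars2. The median correlation of deviations among the cytosolic genes was 0.63 after centring and 0.72 to 0.93 with 1 library left out. The median with Rars2 was -0.0133 after centring and -0.0795 to 0.90 with 1 library left out (-0.0795 without Mtor CKO replicate 1), and the cause was not tested. With 5 libraries the sign-flip test of neighbouring levels cannot reach 0.05, so those runs give values only.

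The replicate numbers were taken as names. Deviations of same-numbered libraries correlated at 0.11, 0.24 and 0.08, and Mtor CKO replicate 1 correlated slightly better with WT replicate 3 (0.12) than with its own number. With the replicate block 405 rows and 5 members were called. Without read counts, the counting error behind the low Rars2 values is unknown.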

Other observations

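Among synthetase genes with an entry in the promoter table, TGATGNAA was present in 5 of 14 cytosolic genes (Aars, Gars, Iars, Tars and Yars) and in 0 of 14 mitochondrial ones, against 4.06% of all promoters. Of these 5 genes Iars alone had a row in the expression table, so whether the others differed between the genotypes is not known here. CACGTG was present in 4 of the 14 cytosolic genes (Aars, Farsb, Iars and Tars) and in 1 of the 14 mitochondrial ones (Ears2), against 7.24% of all promoters. CCGGAAGT was present in 2 cytosolic genes (Farsa and Mars1) and in 1 mitochondrial gene (Rars2).

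The genotype FPKM in the authors' deposited table lay below the mean of the libraries for each member, at 0.685 of it for Farsa and 0.890 of it for Rars2 in Mtor CKO.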
